A study of Mus musculus with 6 samples.

Results

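Collagens, laminins and the proteins assembled with them into basement membranes and fibrillar matrix were examined in P19 cells, 3 control libraries against 3 libraries of cells given the peptide PDTLN1. The members were picked by gene name in the deposited table: every collagen chain gene (44), every laminin chain gene (11) and 23 further genes named one by one, which gave 78 of the 34745 genes listed. The 23 are nidogens, perlecan and agrin, matrix glycoproteins and proteoglycans, and the enzymes that hydroxylate or cross-link collagen. P19 is an established mouse embryonal carcinoma line, a pluripotent cell grown in culture, and the study asked which mRNAs differ after the peptide. The control group is labelled as having had no treatment. The labels give neither the dose of PDTLN1 nor the time of exposure. The titles of the treated libraries also bear the letters and number P50, whose meaning is not stated. Whether the 3 libraries of a group came from separate cultures is not stated, so the p-values below measure only the spread between these libraries, which may be technical.

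A basement membrane is a thin sheet of matrix on which epithelia and other cells sit. Laminins, each a trimer of an alpha, a beta and a gamma chain, polymerise at the cell surface, type IV collagen forms a second network, and nidogens and the heparan sulfate proteoglycans perlecan and agrin join the networks. In the early embryo these are among the first matrix proteins made, and the parietal endoderm secretes them in large amounts. The fibril-forming collagens build the banded fibres of connective tissue instead, and lysyl hydroxylases, prolyl hydroxylases and lysyl oxidases modify and cross-link the chains.

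The libraries held 10381307 to 11663081 counts, of which the 78 genes took 0.493 to 0.571%. Across all genes tested, control library 1 stood apart from its group. On the first principal component of log2 CPM (counts scaled to a common library size), which carried 35.0% of the variance, its score was -17.0, near those of PDTLN1 libraries 2 and 3 (-23.5 and -11.7). The score of PDTLN1 library 1 was 18.3, near those of control libraries 2 and 3 (14.2 and 19.8). Results use all 6 libraries, and the value with both libraries numbered 1 left out is given beside some of those that it moves. The label on RNA extraction speaks of retinas although the samples are labelled P19. Of 10 retina markers, 1 passed the filter on low counts, and Crx, Arr3 and Opn1sw were at 0 in every library. All 10 summed to 3.32 to 4.31 CPM in the controls and 1.65 to 3.93 CPM with PDTLN1. The 10 pluripotent cell markers summed to 3364 to 3511 CPM in the controls and 3221 to 3358 CPM in the PDTLN1 libraries, without overlap. Of the 9 tested, 7 had log2 fold changes below 0, and 1 of them an unadjusted edgeR p under 0.05 (11.1%, against 3.99% of all genes). For 3 of the 9, every PDTLN1 library was below every control, against 4.98% of all genes. Dcbld2, the reference for a gene that passed the test, was at 47.7 ± 3.49 CPM in the controls and 151 ± 3.82 CPM with PDTLN1 (SD, n = 3), or a log2 fold change of 1.67 (edgeR adjusted p = 4.92e-05).

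Levels of different genes were compared in FPKM, which divides by gene length. Mean FPKM over the 6 libraries was above 10 for 19 of the 78 genes, between 1 and 10 for 25 and under 1 for 34. Sparc, a secreted collagen-binding glycoprotein of basement membranes, stood highest at 92.0 FPKM, above 97.3% of all genes tested. It was followed by the nidogen Nid2 at 77.5, the laminin chain Lamc1 at 41.0, the cell-adhesive glycoprotein Fn1 (fibronectin) at 34.4, the laminin chain Lama5 at 31.6, and the type IV collagen chains Col4a1 at 28.6 and Col4a2 at 25.5 FPKM. All of these except Fn1 encode proteins typical of basement membranes, whereas the main chain of bone and skin collagen, Col1a1, was at 5.67 FPKM and its partner Col1a2 at 0.731. Col3a1, the chain of reticular fibres, was at 0.347 FPKM although Col5a2, the adjacent gene 24614 bases away, was at 16.9. The lengths implied by the FPKM ran from 0.357 to 2.92 times the joined exons of the gene in GENCODE M21 (median 1.12), so levels of different genes carry an uncertainty of that size.

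**Figure D1:**
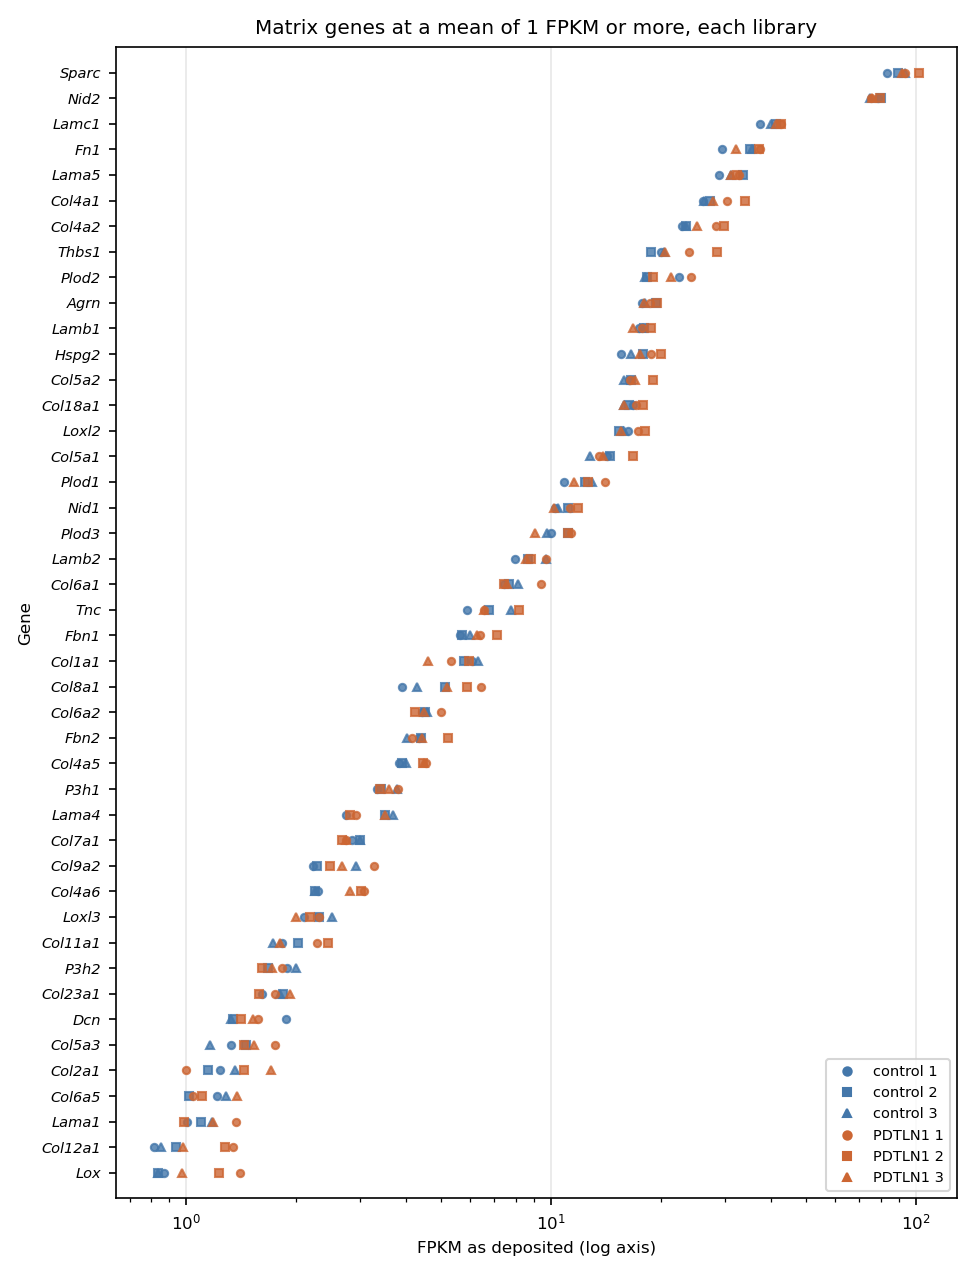
FPKM as deposited (logarithmic axis) of the 44 members with a mean of 1 FPKM or more, ordered by mean, 1 point per library, with colour for the group and shape for the library number. Sparc (mean 92.0 FPKM), Nid2 (77.5) and Lamc1 (41.0) lie at the top, and for most genes the points of both groups overlap.

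The filter on low counts kept 61 of the 78 genes for testing. The other 17 were Col4a3, Col4a4, Col6a3, Col6a6, Col10a1, Col13a1, Col14a1, Col15a1, Col17a1, Col19a1, Col20a1, Col28a1, Lama2, Lamc3, Loxl1, Lum and Vtn, with at most 11 counts in any library. Col10a1, the collagen of hypertrophic cartilage, had 0 counts in every library, and a count of 0 allowed up to 0.256 to 0.290 CPM.

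No member passed the test: the smallest edgeR adjusted p was 0.989, where 3 of all 13836 genes tested (0.0217%) had an adjusted p under 0.05. DESeq2 called 0 members as well, against 10 of all genes (0.0723%). At an unadjusted edgeR p under 0.05 there were 10 members of 61 (16.4%), against 3.99% of all genes. All 10 were higher with PDTLN1, where 2.3% of all genes had such a p and were higher. They were Col4a6, Col4a2, Col12a1, Col8a1, Lox, Col4a1, Thbs1, Fbn1, Hspg2 and Col4a5. DESeq2 gave an unadjusted p under 0.05 for 7 of them and for no other member (11.5%, against 2.65% of all genes). The log2 fold change was above 0 for 42 of the 61 members (68.9%, against 49.7% of all genes), with a median of 0.09 against -0.00 for all genes. Every PDTLN1 library was above every control for 10 members (16.4%, against 4.81% of all genes) and below every control for 1 (1.64%, against 4.98%). Standard errors of the log2 fold changes ran from 0.05 to 0.57 with a median of 0.13.

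**Figure D2:**
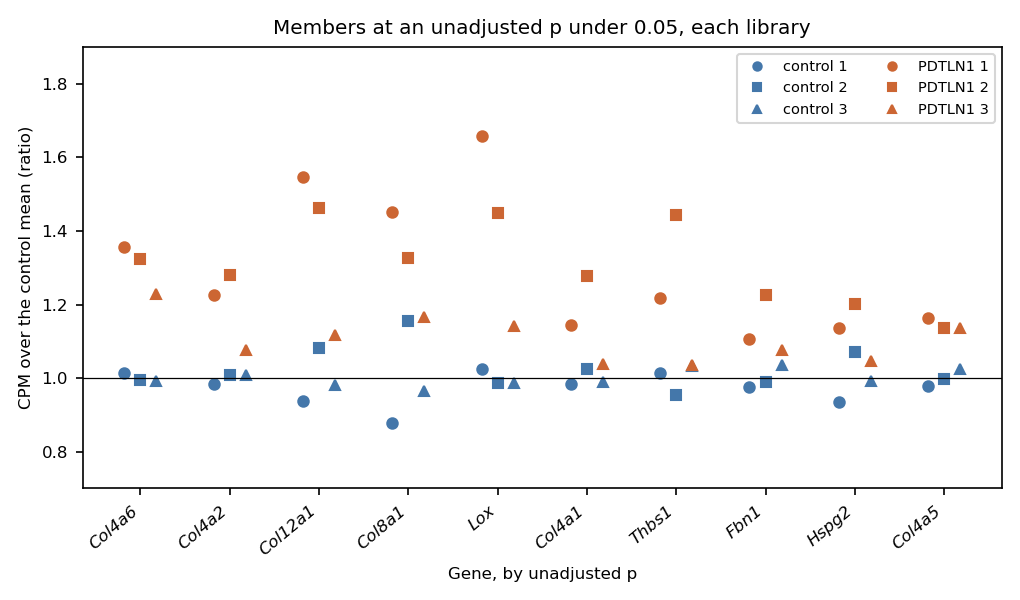
CPM divided by the control mean for the 10 members at an unadjusted edgeR p under 0.05, ordered by p, 1 point per library. All PDTLN1 points of Col4a6, Col4a2, Col4a1 and Col4a5 lie above the control points. PDTLN1 library 3 is the lowest of its group in all 10 genes, though only just so in Col4a5.

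These counts moved with the libraries. Of the 61 tested members, 23 had their lowest CPM in control library 1, and 21 and 18 had their highest in PDTLN1 libraries 2 and 1. The same counts over all genes were not made, so whether they are particular to the members was not tested. With both libraries numbered 1 left out, 6 members had an unadjusted edgeR p under 0.05 (9.84%, against 17.4% of all genes), 4 higher and 2 lower. None passed adjustment there, against 0.652% of all genes, and the members' median was 0.01 with 32 of 61 above 0. Only Col4a6 and Col4a2 were among both the 6 and the 10. Without PDTLN1 library 1 alone, 5 members had such a p (8.20%, against 8.23% of all genes). With all 6 libraries the share of members at this p was above that of all genes. It was about the same without PDTLN1 library 1 and below it without both libraries numbered 1. Both of these scored near the other group on the first principal component of these same data. Leaving them out therefore tends to raise the share of all genes, and the last comparison is no independent check on the members.

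**Figure D3:**
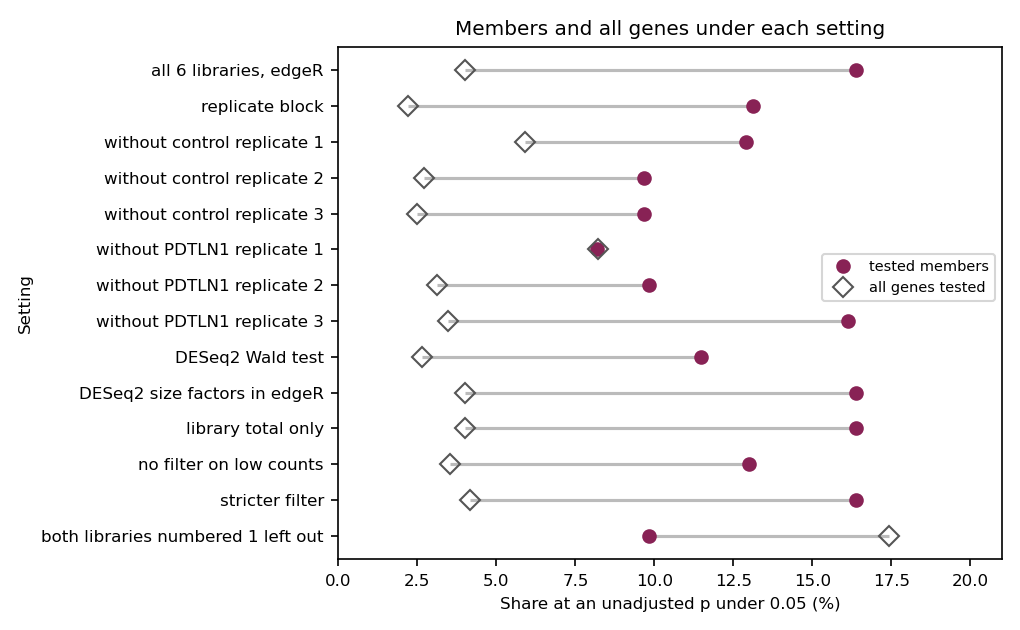
Share of tested members (circles) and of all genes tested (diamonds) at an unadjusted p under 0.05, in percent, under each of the 14 ways of fitting. The members' share is 16.4% against 3.99% with all 6 libraries, 8.20% against 8.23% without PDTLN1 library 1, and 9.84% against 17.4% without both libraries numbered 1.

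The tested members also came from long genes, with a median implied length of 8440 bases against 5316 for all genes tested. The 3772 tested genes at least that long had a median log2 fold change of 0.03, 60.4% of them above 0, and 4.32% at an unadjusted p under 0.05 and higher. The part of gene length in the members' values was not tested.

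**Figure D4:**
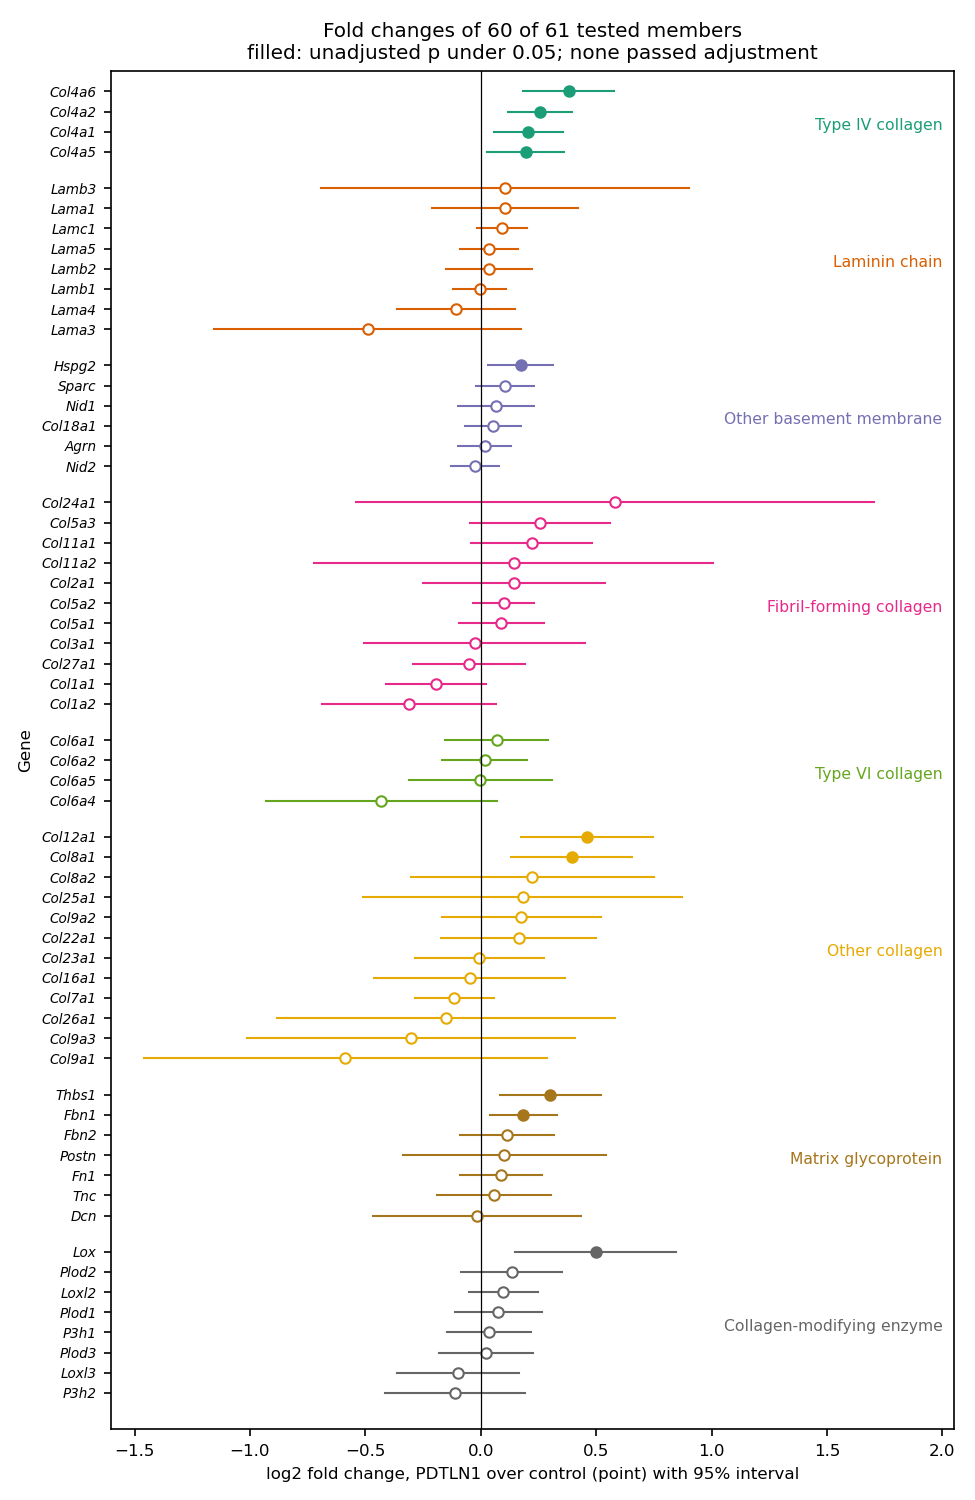
Log2 fold change (PDTLN1 against control, edgeR, 3 libraries a group) of 60 of the 61 tested members by role, with bars of the 95% interval and filled points for an unadjusted p under 0.05. All 4 type IV chains lie above 0 with bars that do not reach it, whereas every laminin bar shown spans 0.

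All 4 tested chains of type IV collagen lay, in each PDTLN1 library, above all 3 controls, with a median log2 fold change of 0.23. Of all genes tested, 4.81% lay so, and the median of all was -0.00. None of the 4 chains passed adjustment. The network of type IV collagen is built from heterotrimers, of which the one of Col4a1 and Col4a2 chains is found in nearly every basement membrane, and the one of Col4a5 and Col4a6 chains in a few, such as that of smooth muscle and Bowman's capsule. Col4a1 (chr8:11198423-11312826, minus strand) was at 185, 193 and 186 CPM in the controls and at 215, 240.1 and 195 CPM with PDTLN1. Col4a2 (chr8:11312805-11449287, plus strand) was at 158, 161 and 161 CPM in the controls and at 196, 205 and 172 CPM with PDTLN1. In both genes the controls lay within a few percent of each other and PDTLN1 library 3 was the lowest of its group, yet above them. The log2 fold change was 0.21 (SE 0.08, edgeR p 0.0243 before adjustment) for Col4a1 and 0.26 (SE 0.07, edgeR p 0.0057 before adjustment) for Col4a2.

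Col4a5 (chrX:141475385-141689234, plus strand) was at 31.3, 31.9 and 32.7 CPM in the controls and at 37.2, 36.3 and 36.3 CPM with PDTLN1. Col4a6 (chrX:141165403-141474076, minus strand) was at 19.0, 18.7 and 18.6 CPM in the controls and at 25.5, 24.9 and 23.1 CPM with PDTLN1. Neither gene's groups overlapped, and the spread within a group was small in both. Col4a6 had the smallest unadjusted p of all members, 0.00417 by edgeR, with a log2 fold change of 0.38 (SE 0.10, a fold of 1.30). For Col4a5 the log2 fold change was 0.19 (SE 0.08, edgeR p 0.0468 before adjustment). Averaged over the 4 chains, the log2 deviation from the mean of all libraries was -0.14, -0.12 and -0.12 in the controls and 0.16, 0.19 and 0.03 with PDTLN1. Over all tested members it was -0.07, -0.01 and -0.02 in the controls and 0.05, 0.06 and -0.01 with PDTLN1. PDTLN1 library 3 was thus nearest to the controls in both. The ratio of Col4a5 to Col4a6 FPKM was 1.72 ± 0.0549 in the controls and 1.51 ± 0.0661 with PDTLN1 (SD, n = 3), while that of Col4a1 to Col4a2 lay between 1.07 and 1.16 in all 6 libraries. Without both libraries numbered 1, the log2 fold changes were 0.20 for Col4a1, 0.22 for Col4a2, 0.17 for Col4a5 and 0.36 for Col4a6. Without PDTLN1 library 2 alone, Col4a1 was at 0.13. Adjusted edgeR and DESeq2 p-values of Col4a6 ran from 0.189 to 1.00 over the 14 ways of fitting. Its unadjusted p and that of Col4a2 were under 0.05 in all 14, that of Col4a1 in 10 and that of Col4a5 in 4.

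The remaining type IV chains, Col4a3 and Col4a4, known from the kidney's glomerular basement membrane, were at mean levels of 0.0111 and 0.0622 FPKM and were not tested. The 6 genes sit in 3 pairs whose members face away from each other, with starts close together. The deposited spans of Col4a1 and Col4a2 overlap by 22 bases at their 5′ ends. Those of Col4a6 and Col4a5 are 1308 bases apart, and those of Col4a4 and Col4a3 71 bases. Because the deposited counts carry no statement on strand, reads in the overlap of Col4a1 and Col4a2 cannot be assigned between them.

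The windows around the starts of the tested type IV chains are shown. They are RefSeq sequences of build GRCm38.p6, 250 bases before to 50 after the annotated start, 5′ to 3′ on the gene's own strand, with CCAAT and GGGCGG in either orientation in capitals. The Col4a2 window (chr8:11312555-11312854, plus strand) also holds the start of Col4a1 at base 11312826. The Col4a6 window is chrX:141474027-141474326 on the minus strand and the Col4a5 window chrX:141475169-141475468 on the plus strand.
Col4a2: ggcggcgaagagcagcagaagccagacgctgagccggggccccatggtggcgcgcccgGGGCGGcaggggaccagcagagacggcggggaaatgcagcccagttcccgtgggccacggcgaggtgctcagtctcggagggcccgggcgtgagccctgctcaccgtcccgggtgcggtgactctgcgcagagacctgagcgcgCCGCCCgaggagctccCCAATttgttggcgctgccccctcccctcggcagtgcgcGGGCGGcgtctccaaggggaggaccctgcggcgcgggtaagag
Col4a6: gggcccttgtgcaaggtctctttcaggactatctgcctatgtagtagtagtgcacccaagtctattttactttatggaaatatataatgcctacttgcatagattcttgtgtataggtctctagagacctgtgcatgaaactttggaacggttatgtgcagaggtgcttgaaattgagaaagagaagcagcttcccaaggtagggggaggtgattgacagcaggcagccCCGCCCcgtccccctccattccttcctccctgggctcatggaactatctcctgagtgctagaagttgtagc
Col4a5: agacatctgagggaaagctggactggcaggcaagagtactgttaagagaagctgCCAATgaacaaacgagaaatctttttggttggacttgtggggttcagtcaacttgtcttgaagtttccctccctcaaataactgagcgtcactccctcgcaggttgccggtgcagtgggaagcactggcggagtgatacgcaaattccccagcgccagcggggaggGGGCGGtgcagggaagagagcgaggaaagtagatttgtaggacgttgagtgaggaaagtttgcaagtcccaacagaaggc

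The Col4a2 window is 73.7% G and C with 33 CpG, against a median of 52.7% G and C over all 32817 RefSeq windows. It holds 3 GGGCGG and 1 CCAAT. The Col4a6 window is 48.3% G and C with 3 CpG and 1 GGGCGG, and the Col4a5 window 52.7% with 11 CpG, 1 GGGCGG and 1 CCAAT. None of the 3 holds TATAAA on either strand. Of all windows of this length, 35.6% hold GGGCGG, 37.4% CCAAT and 13.6% TATAAA. Of the 59 windows of members (51 genes had one), 36 hold GGGCGG, 19 CCAAT and 10 TATAAA. The motifs do not overlap each other, and a match describes letters in the window only. The windows of the 2 pairs differ in base composition, and the part of these sequences in the chains' values was not tested.

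Parietal endoderm, which makes much type IV collagen, was looked for by markers. Of 16 markers of primitive, parietal and visceral endoderm, 6 passed the filter, and the whole list summed to 43.1 to 50.8 CPM in the controls and 47.0 to 52.5 CPM with PDTLN1. Of the 6 tested, 3 lay above 0 and 3 below (median 0.02). At an unadjusted edgeR p under 0.05 there was 1, which was higher (16.7%, against 3.99% of all genes). The groups did not overlap for 1 higher marker (16.7%, against 4.81% of all genes). This was Pdgfra, at 6.52 ± 0.295 CPM in the controls and 9.29 ± 0.515 CPM with PDTLN1 (SD, n = 3). The endoderm regulator Gata6 had 32 to 40 counts in each library and the adaptor gene Dab2 192 to 272, with log2 fold changes of -0.10 and -0.03. Sox17, Gata4, Foxa2 and Hnf4a had at most 9 counts in any library and Sox7 at most 17. The part of such cells in the collagen values was not tested, and in bulk RNA fewer cells of a type and less RNA per cell cannot be told apart.

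None of the 9 tested laminin chains had an unadjusted p under 0.05 with all 6 libraries, and their median log2 fold change was 0.04, with 6 above 0 and 3 below. In every library 1 chain of each kind predominated. Lama5, the alpha chain of the laminins on which pluripotent cells grow well, made up 85.5 to 88.8% of the summed alpha chain FPKM. Lamb1 made up 64.1 to 68.3% of the beta chains, with Lamb2 as most of the rest, and Lamc1 98.5 to 98.7% of the gamma chains. Lamc1 was above Lamb1 by 2.14 to 2.48 times in FPKM.

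Lamc1 was at 382, 424 and 410.4 CPM in the controls and at 438, 438 and 422 CPM with PDTLN1. The PDTLN1 libraries were high, but control library 2 lay above the lowest of them, and the log2 fold change was 0.09 (SE 0.06). Lama5 was at 357, 415 and 386 CPM in the controls and at 408, 399 and 382 CPM with PDTLN1. Its groups overlapped, with the lowest value in control library 1, and its log2 fold change was 0.04 (95% interval -0.09 to 0.16). Lamb1 was at 223, 230.1 and 229 CPM in the controls and at 227, 239 and 213 CPM with PDTLN1. PDTLN1 libraries 2 and 3 were the highest and the lowest of all 6, and the log2 fold change was -0.00 (95% interval -0.12 to 0.11). Lamb2 was at 59.8, 65.0 and 72.7 CPM in the controls and at 72.9, 66.1 and 63.5 CPM with PDTLN1. Its groups covered the same range, with a log2 fold change of 0.04 (SE 0.10).

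The other laminin chains were at lower levels. Lama4, a chain of vascular and mesenchymal laminins, was at 40.5, 51.9 and 54.4 CPM in the controls and at 43.3, 41.6 and 51.4 CPM with PDTLN1 (log2 fold change -0.11, SE 0.13). Control library 1 was the lowest there and the groups overlapped. Lama1, the alpha chain of the embryo's first basement membranes, was at 9.60, 10.5 and 11.2 CPM in the controls and at 13.1, 9.38 and 11.3 CPM with PDTLN1 (0.10, SE 0.16). Both the highest and the lowest of its values were in PDTLN1 libraries. Lama3 and Lamb3, chains of epithelial laminins, were at lower levels still. Lama3 was at 2.11, 3.28 and 4.57 CPM in the controls and at 3.10, 2.35 and 1.71 CPM with PDTLN1 (-0.49, SE 0.34). Lamb3 was at 0.864, 2.16 and 0.986 CPM in the controls and at 1.74, 1.39 and 1.20 CPM with PDTLN1 (0.10, SE 0.41). Both overlapped between groups. Without both libraries numbered 1, Lama5 was at a log2 fold change of -0.04, Lamb2 at -0.09, Lama1 at -0.07 and Lamb3 at -0.27, each on the other side of 0. Lama3 was at -0.96 there, with an edgeR p of 0.0154 before adjustment, and at -0.19 without control library 3.

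**Figure D5:**
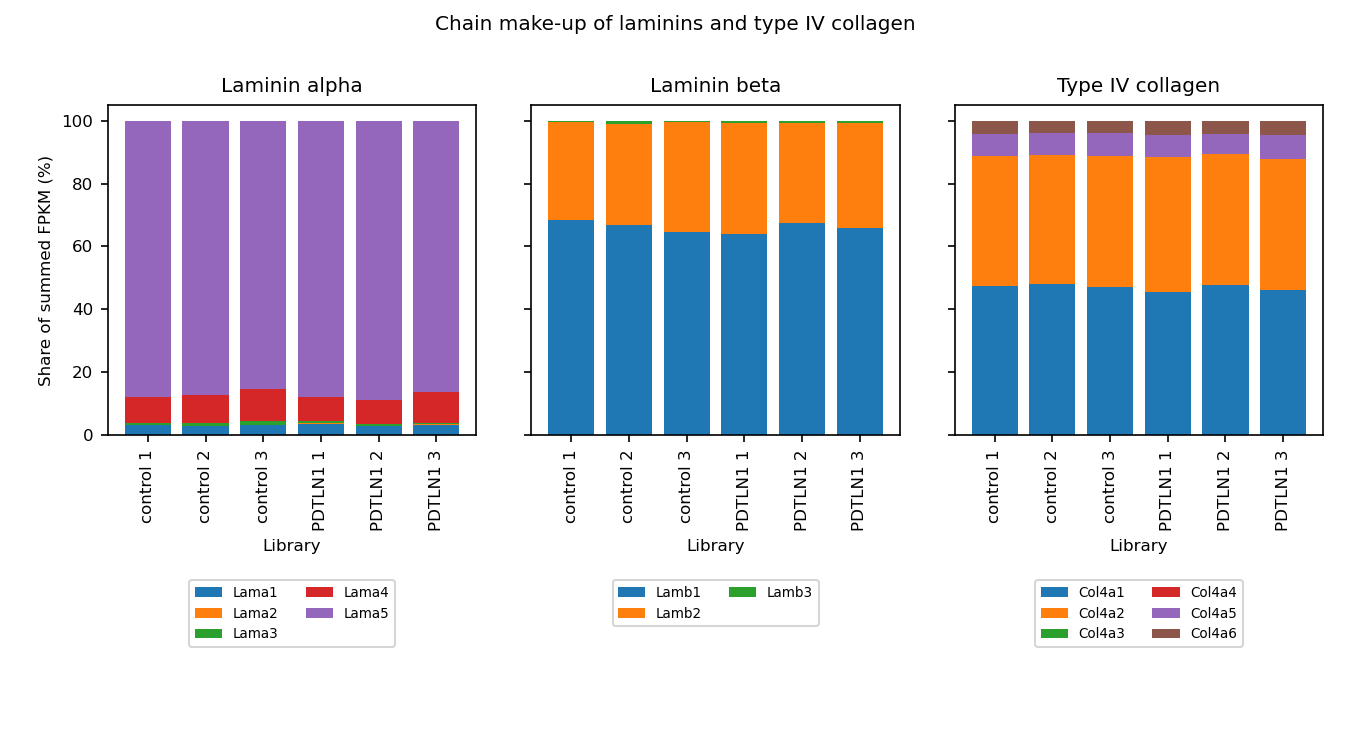
Share of each chain in the summed FPKM of laminin alpha and beta chains and of type IV collagen, 1 stacked bar per library. Lama5 (85.5 to 88.8%) and Lamb1 (64.1 to 68.3%) are the main laminin chains of their kinds in all 6 libraries, and Col4a1 and Col4a2 fill most of the type IV bars.

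Of the other basement membrane components, 6 of 7 were tested, and their median log2 fold change was 0.06, with 5 above 0. Hspg2, the gene of perlecan (chr4:137468769-137570630), was at 261, 299 and 277 CPM in the controls and at 316, 335 and 292 CPM with PDTLN1. Its groups overlapped by 1 library each, PDTLN1 library 3 lying below control library 2, and the log2 fold change was 0.17 (SE 0.07, edgeR p 0.0381 before adjustment). Agrin (Agrn), the proteoglycan that also organises the nerve-muscle synapse, had a log2 fold change of 0.02 (SE 0.06), and Col18a1, whose end fragment is endostatin, one of 0.05 (SE 0.06). Nid2 was at 386, 394 and 367 CPM in the controls and at 370.4, 390.0 and 368 CPM with PDTLN1. The groups overlapped almost whole, with a log2 fold change of -0.02 (95% interval -0.13 to 0.08). Nid1, the other nidogen, had 0.07 (SE 0.08), and Nid2 exceeded it by 6.69 to 7.70 times in FPKM. Sparc was at 369.6, 396 and 413 CPM in the controls and at 414, 451 and 402 CPM with PDTLN1. Control library 3 lay above PDTLN1 library 3, and the log2 fold change was 0.10 (SE 0.06, edgeR p 0.141 before adjustment).

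The fibril-forming collagens were all tested, none had an unadjusted p under 0.05 with all 6 libraries, and 7 of 11 had log2 fold changes above 0 (median 0.10). The highest were the type V chains Col5a2 and Col5a1, which start fibrils and set their width, at 16.9 and 14.3 FPKM with log2 fold changes of 0.10 (SE 0.07) and 0.09 (SE 0.09). The type I chains Col1a1 and Col1a2 lay on the other side, at -0.19 (SE 0.11) and -0.31 (SE 0.19). The cartilage chains Col2a1 and Col11a1 had 0.14 (SE 0.20) and 0.22 (SE 0.13). The other tested chains of this kind, Col3a1, Col5a3, Col11a2, Col24a1 and Col27a1, ran from -0.05 to 0.58. Without both libraries numbered 1, Col11a2 went from 0.14 to 0.94 (edgeR p 0.00918 before adjustment) and Col24a1 from 0.58 to 1.67 (edgeR p 0.018 before adjustment). Col1a1 had an unadjusted p under 0.05 without PDTLN1 library 2. These chains' values thus moved with the libraries used. Fibril-forming and network collagens also differ in sequence, and a stretch of coding sequence from each is shown with every glycine codon that begins a triplet in capitals. Both come from the longest coding transcript in GENCODE M21 and are 90 bases long: for Col1a1 the start of its longest unbroken run of such triplets, and for Col4a1 the end of its longest run and the codons after it.
Col1a1: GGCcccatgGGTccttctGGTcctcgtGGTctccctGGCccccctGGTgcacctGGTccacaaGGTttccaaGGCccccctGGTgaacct
Col4a1: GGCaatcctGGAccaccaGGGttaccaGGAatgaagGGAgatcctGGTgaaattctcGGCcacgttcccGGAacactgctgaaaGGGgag

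In Col1a1 the capitals return at an even spacing of 3 codons throughout, and the run went on for 338 triplets. In Col4a1 the spacing breaks inside the stretch, and the longest run was 40 triplets. Over the 11 fibril-forming chains the longest run was 216 to 344 triplets, and over the 6 type IV chains 39 to 66. In the 6 type VI chains it was 37 to 87.

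Among the other collagens, 12 of 19 were tested and split evenly, 6 above 0 and 6 below. Col12a1 (chr9:79598991-79718831), a chain that binds to the surface of fibrils, was at 14.5, 16.7 and 15.1 CPM in the controls and at 23.9, 22.6 and 17.3 CPM with PDTLN1. PDTLN1 library 3 was only just above the controls, and the log2 fold change was 0.46 (SE 0.15, edgeR p 0.0119 before adjustment), or 0.32 without both libraries numbered 1. Col8a1 (chr16:57624258-57754737), a short network chain of vessels and of the cornea, was at 20.0, 26.3 and 22.0 CPM in the controls and at 33.0, 30.2 and 26.5 CPM with PDTLN1. The groups came within a fraction of a CPM of each other without overlap, and the log2 fold change was 0.39 (SE 0.13, edgeR p 0.0163 before adjustment), or 0.23 without both libraries numbered 1. Col7a1, the anchoring fibril chain below the skin's basement membrane, was the member that was lower in every PDTLN1 library, at 33.0 ± 0.858 CPM in the controls and 30.5 ± 0.407 CPM with PDTLN1 (SD, n = 3). Its log2 fold change was -0.12 (SE 0.09). The tested type VI chains, which form beaded filaments, had a median of 0.01, with Col6a1 at 0.07 (SE 0.11), Col6a2 at 0.02 (SE 0.09), Col6a5 at -0.00 (SE 0.16) and Col6a4 at -0.43 (SE 0.26). The remaining tested collagens, Col8a2, Col9a1, Col9a2, Col9a3, Col16a1, Col22a1, Col23a1, Col25a1 and Col26a1, ran from -0.59 to 0.22 and overlapped between groups. Without both libraries numbered 1, Col9a1 went from -0.59 to 0.00 and Col9a3 from -0.30 to -0.78 (edgeR p 0.0419 before adjustment), and Col6a1 and Col6a2 were at -0.08 and -0.07. Col9a2 went from 0.18 to -0.02 there and Col25a1 from 0.18 to -0.18.

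Of the glycoproteins and proteoglycans of the matrix, 7 of 9 were tested, 6 with log2 fold changes above 0. Thbs1 encodes thrombospondin-1, a secreted glycoprotein that limits vessel growth and activates latent TGF-beta. It was at 130.3, 123 and 133 CPM in the controls and at 157, 186 and 133 CPM with PDTLN1. PDTLN1 library 2 was far above the rest and PDTLN1 library 3 level with control library 3, and the log2 fold change was 0.30 (SE 0.11, edgeR p 0.0248 before adjustment), or 0.17 without PDTLN1 library 2. Fbn1, the gene of the microfibril protein fibrillin-1, was at 83.2, 84.2 and 88.2 CPM in the controls and at 94.4, 104 and 91.6 CPM with PDTLN1. Its groups did not overlap, and the log2 fold change was 0.18 (SE 0.07, edgeR p 0.0354 before adjustment). Fn1 was at 532, 638 and 644 CPM in the controls and at 678, 672 and 578 CPM with PDTLN1. The groups overlapped, with 1 low library in each, and the log2 fold change was 0.09 (SE 0.09). Fbn2 and Tnc (tenascin-C) had 0.11 (SE 0.10) and 0.06 (SE 0.13), and Postn (periostin) and Dcn (decorin) 0.10 (SE 0.22) and -0.02 (SE 0.23).

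Of the 9 enzymes that modify collagen, 8 were tested, 6 with log2 fold changes above 0. Lox, the lysyl oxidase that starts cross-links between chains, was at 6.53, 6.28 and 6.27 CPM in the controls and at 10.5, 9.21 and 7.26 CPM with PDTLN1. The controls were close together and every PDTLN1 library lay above them, with a log2 fold change of 0.50 (SE 0.18, edgeR p 0.0206 before adjustment), or 0.39 without both libraries numbered 1. The related oxidases Loxl2 and Loxl3 had 0.10 (SE 0.08) and -0.10 (SE 0.13). The lysyl hydroxylases Plod1, Plod2 and Plod3 had 0.08 (SE 0.10), 0.13 (SE 0.11) and 0.02 (SE 0.10), and the prolyl 3-hydroxylases P3h1 and P3h2 0.04 (SE 0.09) and -0.11 (SE 0.15). Plod1, Plod3 and P3h1 were below 0 without both libraries numbered 1, at -0.08, -0.06 and -0.05.

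Fibroblasts and mesenchymal cells also make fibrillar matrix. Of 12 of their markers 8 were tested, and Dpt was at 0 in every library. The whole list summed to 222 to 247 CPM in the controls and 228 to 291 CPM with PDTLN1, highest in PDTLN1 library 2. At an unadjusted edgeR p under 0.05 there were 2 higher and 1 lower (37.5%, against 3.99% of all genes). The groups did not overlap for 1 higher and 1 lower marker of the 8 (12.5% higher). Of all genes, 4.81% were higher and 4.98% lower without overlap. Of 8 endothelial markers 3 were tested, and the whole list summed to 14.7 to 17.7 CPM in the controls and 15.5 to 17.9 CPM with PDTLN1, with Emcn at 0 throughout. The part of such cells in the members' values was not tested.

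Further genes of the same pathway held no gene that passed the test, in 4 lists. Of 26 tested genes for folding, processing and export of collagen, 11 lay above 0 and 15 below (median -0.01). Bmp1, the protease that trims the ends of fibrillar procollagens and activates lysyl oxidase, was at 23.2, 19.0 and 18.9 CPM in the controls and at 14.0, 14.5 and 16.3 CPM with PDTLN1. Every PDTLN1 library lay below the controls, with a log2 fold change of -0.45 (SE 0.13, edgeR p 0.00766 before adjustment). Next to it on that side were Serpinh1, the collagen chaperone HSP47, at -0.30 (SE 0.13) and the galactosyltransferase Colgalt1 at -0.12. On the other side were Adamts3 at 0.36, P3h3 at 0.18 and Tll1 at 0.30, all overlapping between groups. Without both libraries numbered 1, Adamts3 was at 0.11, P3h3 at 0.08, Tll1 at 0.59, Colgalt1 at -0.26 and Bmp1 at -0.30. The median of this list lay near that of all genes.

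Of 34 tested genes for other basement membrane and matrix proteins, 15 lay above 0 and 19 below (median -0.07). Fras1, a large protein that holds embryonic epithelium to its basement membrane, was at 139.8, 162 and 155 CPM in the controls and at 185, 187 and 174 CPM with PDTLN1. The groups did not overlap, and the log2 fold change was 0.26 (SE 0.07, edgeR p 0.00434 before adjustment). Frem1, of the same family, had 0.41 (SE 0.22) and Ccn1 0.19 (SE 0.10). The smallest p-values below 0 were those of Mfap5 at -0.60 (SE 0.34), Vcan at -0.14 (SE 0.08) and Mfap2 at -0.19 (SE 0.11). These 3 were lower in every PDTLN1 library than in any control, where 4.98% of all genes were. Fras1 was the 1 gene of the list higher without overlap (2.94%, against 4.81% of all genes). Ccn1 was at 0.32, Vcan at -0.07 and Fras1 at 0.19 without both libraries numbered 1.

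Of 25 tested receptors for collagen, laminin and fibronectin, 11 lay above 0 and 14 below (median -0.02). Itga10, a collagen-binding integrin chain of cartilage, was at 1.34, 0.844 and 0.269 CPM in the controls and at 1.26, 2.43 and 1.79 CPM with PDTLN1. The groups overlapped at these low levels, with a log2 fold change of 1.17 (SE 0.49, edgeR p 0.0416 before adjustment). Itgb8 had 0.46 (SE 0.21) and Dag1, the gene of the laminin receptor dystroglycan, 0.17 (SE 0.15). On the other side were Itgb3 at -0.37 (SE 0.25), Itga8 at -0.32 (SE 0.27) and Itgb1, the common beta chain of matrix integrins, at -0.07 (SE 0.05). With both libraries numbered 1 left out, Itga10 was at 1.92, Itgb8 at 0.74, Dag1 at 0.30, Itgb3 at -0.67, Itgb1 at -0.11 and Itga8 at -0.09.

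Of 22 tested proteases and inhibitors, 11 lay on each side of 0 (median 0.00). At an unadjusted edgeR p under 0.05 there were 3 higher and 1 lower (18.2%, against 3.99% of all genes). Every PDTLN1 library was above every control for 3 (13.6%, against 4.81% of all genes). It was below every control for 1 of the 22, against 4.98% of all genes. Plat, the tissue plasminogen activator, had -0.27 (SE 0.15) and Mmp11 -0.26 (SE 0.17), or -0.15 and -0.53 without both libraries numbered 1. Hpse, which cuts the heparan sulfate of perlecan and agrin, was at 2.21, 2.72 and 2.24 CPM in the controls and at 5.13, 2.95 and 4.10 CPM with PDTLN1. It had a log2 fold change of 0.76 (SE 0.26, edgeR p 0.0182 before adjustment) without overlap, but 0.51 without both libraries numbered 1. The proteoglycan-cutting protease Adamts9 and the membrane-bound protease Mmp16 had 0.22 (SE 0.09) and 0.28 (SE 0.11), each without overlap, or 0.10 and 0.28 without both libraries numbered 1.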

How the data were processed

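Libraries from P19 cells (3 control, 3 PDTLN1) were prepared with an Illumina TruSeq kit and sequenced, per the labels' protocols. The deposited counts are whole numbers per gene, not normalized, and the deposited FPKM are the authors' values per gene length and library total, per the file headers and the values. Dividing counts by FPKM gave 1 gene length within 0.1% in all 13031 genes with at least 10 counts in each library. Bowtie 0.12.2 and the builds mm8 and mm9 are named per the submitters' processing notes, with no role. Which program counted reads, with what annotation, strand setting and handling of multiple matches is not given in the sources used here, so counts of overlapping or closely related genes are uncertain. The deposited positions of 67 of the 78 members equal those of GENCODE M21 (GRCm38).

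Counts were tested with edgeR 4.0.16 in R 4.3.3 (filterByExpr, TMM scaling, robust quasi-likelihood fit, two-sided, Benjamini-Hochberg adjustment over 13836 genes, threshold 0.05). The code was tested on simulated data first. CPM use the TMM-scaled library sizes. SE is the log2 fold change over the square root of F, and 95% intervals are 1.96 SE. Because 1.96 is the multiple of a normal distribution, these intervals are narrower than the F test with few libraries implies. DESeq2 1.42.0, other scalings and filters, leaving out each library or both numbered 1, and a replicate block were alternatives. Replicate numbers are shared between groups, but deviations from the group means of libraries with the same number were not positively correlated (r = -0.36, -0.14 and -0.10), so the main fit has no block.

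The members and lists were chosen with earlier results of these data known. Values in every library are given for tested type IV and laminin chains, the 8 members of highest FPKM and the 10 of smallest p; of each pathway list, the 3 genes of smallest p in each direction are named. Of these, 1 member and 1 list gene that the rule names are not reported here. Other members and the markers beside a result were named after their values were seen. Promoter windows are from RefSeq (GRCm38.p6).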

Additional observations from a re-analysis of the deposited data

How the results depend on the processing

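No member passed adjustment under any of the 13 alternatives. Genes called among all tested were 3; they were 1 with a replicate block, 10 with DESeq2, 8 with no filter on low counts, 91 with both libraries numbered 1 left out, and 2 to 13 when 1 library was left out. Members at an unadjusted p under 0.05 were 10; they were 8 with the replicate block, 6 with both libraries numbered 1 left out, and 5 to 10 when 1 library was left out. The median log2 fold change of the members, 0.09, was 0.04 on leaving out either library numbered 1, and 0.01 on leaving out both. Of 22 members chosen by the naming rule, 16 kept their direction under every alternative and 6 did not. The rule took 10 of the 22 for their small p in the main fit, and none of the 6 was among these. The alternatives reuse the same libraries, so that those 10 kept their direction is in part a result of the choice. With both libraries numbered 1 left out, Fn1 was at -0.039, Lama1 at -0.073, Lama5 at -0.039, Lamb2 at -0.090 and Lamb3 at -0.27. When 1 library was left out, Lama1 ran from -0.015 to 0.22, Lama5 from -0.016 to 0.092, Lamb1 from -0.046 to 0.039, Lamb2 from -0.029 to 0.11 and Lamb3 from -0.12 to 0.63. The cause was not tested. Depth limits the 17 untested members and those under a few CPM, whose standard errors reached 0.57.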
